A study of Mus musculus with 60 samples.

Results

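Control fibroblasts labelled as skin were compared with control fibroblasts labelled as tail tip, both from wild-type mice, by RNA sequencing. The members were taken by their labels from the count table of the TGFb inhibitor experiment: 3 skin libraries and 3 tail tip libraries, 6 of the 24 libraries in that table and 6 of the 60 libraries in the study. The study asked how short cellular reprogramming and TGFb inhibitors act on fibroblasts of Ercc1 d/- mice, which age early because of a defect in DNA repair. Both groups used here were Ercc1 +/+, female and 14 weeks old, with treatment given as control. The titles mark the skin libraries wt-2 and the tail tip libraries wt, and nothing in the labels says whether wt-2 is another mouse, line or batch, so that a difference of tissue and any such difference cannot be told apart. Tail tip cells of 2 further groups were read beside them: Ercc1 d/- controls (female, 4 weeks, 3 libraries, same table) and cells with the genotype 4FJ (+/-) OCT4-GFP and the treatment TGFB (female, 22 weeks, 3 libraries, same table). For a set of Hox genes all 54 other libraries of the study were read, these 2 groups among them. The rest were Ercc1 d/- cells (4 weeks) under Repsox, Vactosertib, DMH-1 or A83-01, and 4F cells with inducible reprogramming factors. The 4F cells were Ercc1 d/- (8 weeks) or wild-type (22 weeks), before or during reprogramming by doxycycline, with or without vitamin C and CHIR (VC). All cultures were kept at 3% oxygen and passaged no more than 3 times. The isolation is described for tail tip only, by digestion with collagenase and dispase. Nothing in the labels says whether the 3 libraries of a group came from separate animals or cultures, so the p-values measure the spread between these libraries, which may be technical.

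Fibroblasts build and remodel the collagen matrix of the dermis, and in a wound or in culture they can turn contractile under TGFb and stiff support. They also keep a record of where in the body they arose, held by the Hox genes: genes at one end of each of the clusters Hoxa, Hoxb, Hoxc and Hoxd are active from the neck down, and those at the other end mark the hind limb, the genital region and the tail. Fibroblasts of the trunk skin and of the tail are therefore known to differ in their Hox genes for as long as they are cultured.

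The 6 libraries held 19677799 to 27782538 counts. Labelled skin replicate 1 stood apart from its replicates: over 14566 genes its log2 level correlated with theirs at r = 0.94 and 0.943, against 0.99 between replicates 2 and 3 (across genes, which are not independent). In it 3744 genes lay more than 2-fold from its replicates, against 891 and 1059 in labelled skin 3 and 2 and 321 to 665 in a library of labelled tail tip. Ribosomal protein genes took 11.4% of its counts, against 4.15% and 4.61% in labelled skin 2 and 3 and 5.32% to 8.4% in labelled tail tip. Short genes read high and long genes low in this library (Spearman correlation with gene length across genes -0.464), and labelled tail tip 3 (-0.494) and 1 (-0.28) leaned the same way, with a smaller range of the binned medians. Each result below is given for all 6 libraries and, where it says so, without labelled skin 1.

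**Figure D1:**
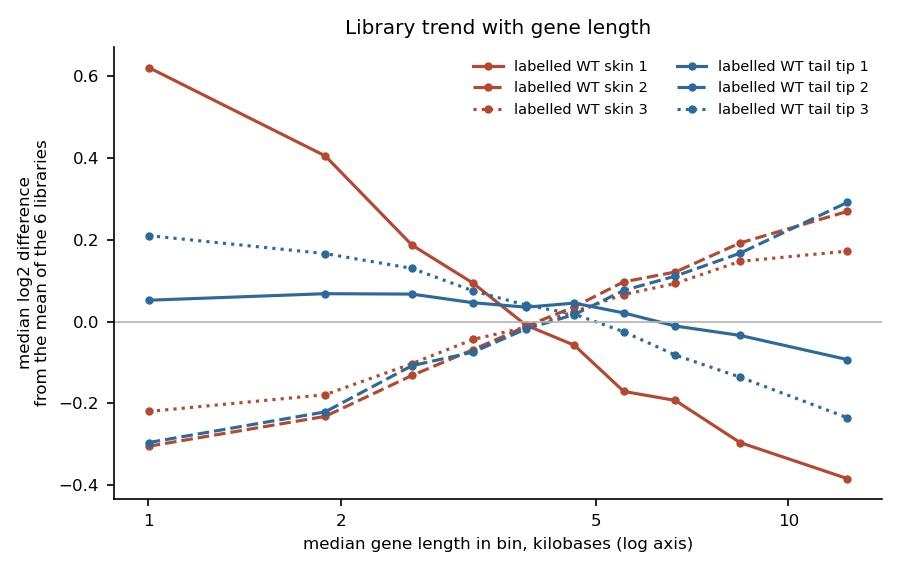
Trend of the 6 libraries with gene length. Genes were put into 10 bins by length (x axis, median length in kilobases, log axis), and each line gives the median log2 difference of 1 library from the mean of the 6 libraries (y axis). Labelled skin 1 runs from 0.621 in the shortest bin to -0.384 in the longest, while labelled skin 2 and 3 and labelled tail tip 2 run the other way.

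The Hox genes went against the label of the tail tip libraries. Hoxb13 (chr11:96085142-96088273, GRCm39), the most posterior gene of its cluster, read 0.0745, 0 and 0 CPM (counts scaled to the size of the library) in the libraries labelled WT tail tip, and 129, 108 and 115 CPM in the Ercc1 d/- tail tip controls. Hoxa13 had no count in any of the libraries labelled WT tail tip, where a count of 0 allows at most 0.124 CPM, against 18.4, 19.2 and 16.5 CPM in the Ercc1 d/- tail tip. Hoxc13, which is active in the tail and in hair follicles, read 1.01, 0.62 and 0.823 CPM against 30.5, 26.7 and 28 CPM. Over the 54 libraries of the study outside the 2 groups compared, all labelled tail tip, Hoxa13 ranged from 11 to 34 CPM, Hoxb13 from 15 to 245 and Hoxc13 from 20.1 to 71.5, so that the libraries labelled WT tail tip stood below every one of them for each of these genes. Hoxa11 (at most 0.0775 CPM against 4.53 to 23.1) and Hoxc12 (at most 0.41 against 14.7 to 80.3) lay apart in the same way. Hoxd13, the most posterior gene of the Hoxd cluster, did not set them apart: it had no count in the libraries labelled WT tail tip, but its median over the 54 libraries was 0.166 CPM and only 41 of them had a count. The floor covers counting error only, and the tables that hold the 54 libraries were scaled separately. Most of the 54 were treated or reprogrammed cells, and many share genotype and age, so they cannot be read as 54 separate lines. Hoxb13 differed between such groups, with a mean of 57.3 CPM in 4F Ercc1 d/- cells at day 0 and 18.3 CPM at day 4 with VC.

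The same libraries carried the middle of the Hoxc cluster and Hoxd8, as labelled skin did. Hoxc8, a gene of the thoracic level, read 149, 124 and 150 CPM in labelled WT tail tip and 115, 81.3 and 77.9 CPM in labelled skin, but 0.0916 to 2.5 CPM in the other 54 libraries. Hoxc6 read 48.2, 46.2 and 49.3 CPM in labelled WT tail tip and 52.8, 45.8 and 46.3 CPM in labelled skin, against 1.61 to 10.1 CPM elsewhere. Hoxc4, Hoxc5, Hoxc9 and Hoxd8 had the same arrangement, with Hoxd8 at 49.4 to 61.1 CPM in labelled WT tail tip, 55.9, 30.5 and 31.9 CPM in labelled skin and at most 18.5 elsewhere. Without labelled skin 1, Hoxc8 (log2 fold change -0.8, edgeR adjusted p = 0.00273) and Hoxd8 (-0.84, adjusted p = 0.00314) were called lower in labelled skin. Hoxd9 did not set them apart, at 8.56 to 10.4 CPM against up to 14.6 CPM elsewhere. The cells are therefore called labelled tip and labelled skin in what follows, in place of any statement about the tissue.

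**Figure D2:**
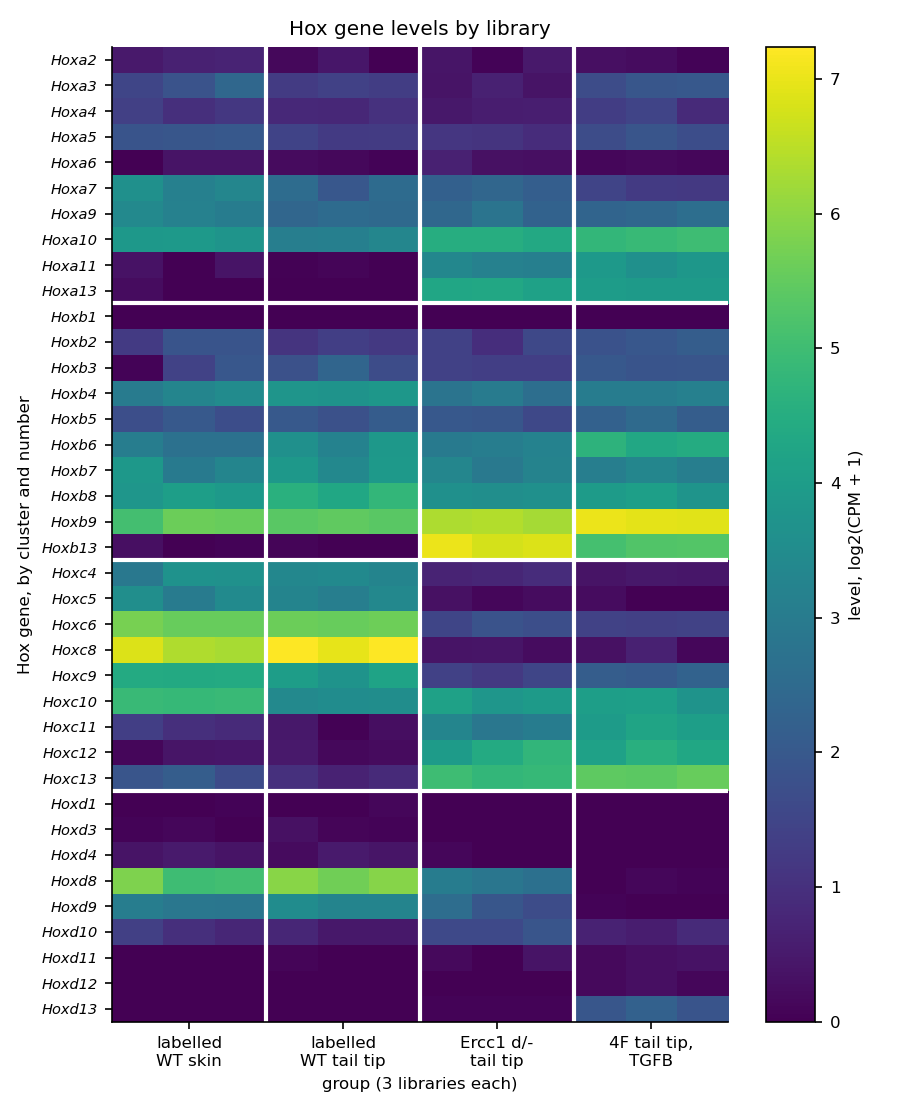
Level of Hox genes in 12 libraries, as log2(CPM + 1) (colour), with genes in rows by cluster and libraries in columns by group, 3 each. The columns of labelled WT skin and labelled WT tail tip share high Hoxc6, Hoxc8 and Hoxd8 and lack Hoxa13, Hoxb13 and Hoxc12, which the Ercc1 d/- and 4F tail tip libraries carry.

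Between labelled skin and labelled tip, the Hox genes that were called differed by 0.72 to 2.41 on the log2 scale (Hoxc11 the most). Of the 39 genes, 26 passed the filter on low counts and 3 had no count in these 6 libraries; 8 were called higher in labelled skin and 0 lower (edgeR), against 10.5% of all genes tested called higher and 7.91% called lower. At an unadjusted p under 0.05, 5 were lower, and DESeq2 called 3 lower. Hoxc11 passed the filter through labelled skin alone, which fixed its direction. With at least 10 counts in every library, 7 were called higher. In level, 22 genes exceeded 1 CPM in every library of labelled skin, and 22 did so in every library of labelled tip. Hoxc10, a gene of the lumbar level and hind limb, gave the clearest difference, at 29, 27.9 and 28.8 CPM in labelled skin and 9.54, 10.5 and 10.8 CPM in labelled tip. The groups did not overlap, and the log2 fold change was 1.49 ± 0.15 (SE, n = 3 and 3; edgeR adjusted p = 0.0012). Hoxc13, at 2.14 to 3.4 CPM in labelled skin against 0.62 to 1.01 CPM, had a log2 fold change of 1.76 ± 0.32 (edgeR adjusted p = 0.00961). Hoxa5, Hoxa7, Hoxa9 and Hoxa10 were higher by 0.72 to 1.18, and Hoxc11, at 0.831 to 1.52 CPM in labelled skin, by 2.41 ± 0.63. Without labelled skin 1 the counts were 10 higher and 5 lower of 27 tested, against 18.8% and 16.5% of all genes in that fit. Without labelled skin 2, 4 were called higher, 3 without labelled skin 3 and 2 without any 1 of the labelled tip libraries. Hoxc10 and Hoxc13 were called in each of the fits without 1 library. Reads of neighbouring Hox genes can overlap in the annotation (Hoxc5 overlaps Hoxc6, Hoxc8, Hoxc9 and Hoxc10), and whether the counting used strand is not given in the sources used here.

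Other factors that pattern the body and its skin were called in both directions, 10 higher in labelled skin and 13 lower of 44 tested, against 10.5% and 7.91% of all genes. Osr2, a zinc finger factor of limb and jaw mesenchyme, read 0.893, 0.637 and 0.89 CPM in labelled skin and 18.3, 15.1 and 15.1 CPM in labelled tip (log2 fold change -4.31 ± 0.23, edgeR adjusted p = 0.000269). Lhx9, a LIM factor of limb and gonad, was also lower (-1.95 ± 0.29). Zic1, a factor of the dorsal trunk, was higher in labelled skin at 33.3 to 35.4 CPM against 14.1 to 17.4, and read only 4.64, 4.29 and 5.19 CPM in the Ercc1 d/- tail tip. The groups did not overlap for any of these 3 genes, and Zic1 shares its locus with Zic4 on the other strand.

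In all, 14073 genes passed the filter, of which 1478 were higher and 1113 lower in labelled skin at an adjusted p under 0.05 (18.4% of the genes tested), with a median log2 fold change of 0.03. In 38.5% of the genes tested the CPM of the groups did not overlap. Without labelled skin 1 the counts were 2709 (18.8% of 14440 tested) and 2381 (16.5%), whereas without labelled tail tip 1 they were 769 and 512, and without labelled tail tip 3 they were 866 and 603. The counts of every list without labelled skin 1, here and below, stand against these shares of 18.8% higher and 16.5% lower. Genes called lower numbered 726 without labelled skin 2, 646 without labelled skin 3 and 658 without labelled tail tip 2. The common biological coefficient of variation with all 6 libraries was 0.277. By level per kilobase of gene, the same genes stood at the top in both groups: Col1a1 and Col3a1, which encode fibrillar collagen, Eef1a1, an elongation factor of translation, and the ribosomal protein Rplp1. Col1a1 reached 9300 CPM per kilobase in labelled skin and 5420 in labelled tip, but its CPM in labelled skin spread from 33500 in replicate 1 to 77000 in replicate 2, and it was not called (0.79 ± 0.36, edgeR adjusted p = 0.181; 1.09 without labelled skin 1, adjusted p = 0.000825). Ercc1, which is intact in both groups by its label, read 30.2, 20.5 and 23.3 CPM in labelled skin and 19.2, 13.3 and 21.7 CPM in labelled tip and was not called (edgeR adjusted p = 0.25); its locus overlaps Polr1g on the other strand.

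**Figure D3:**
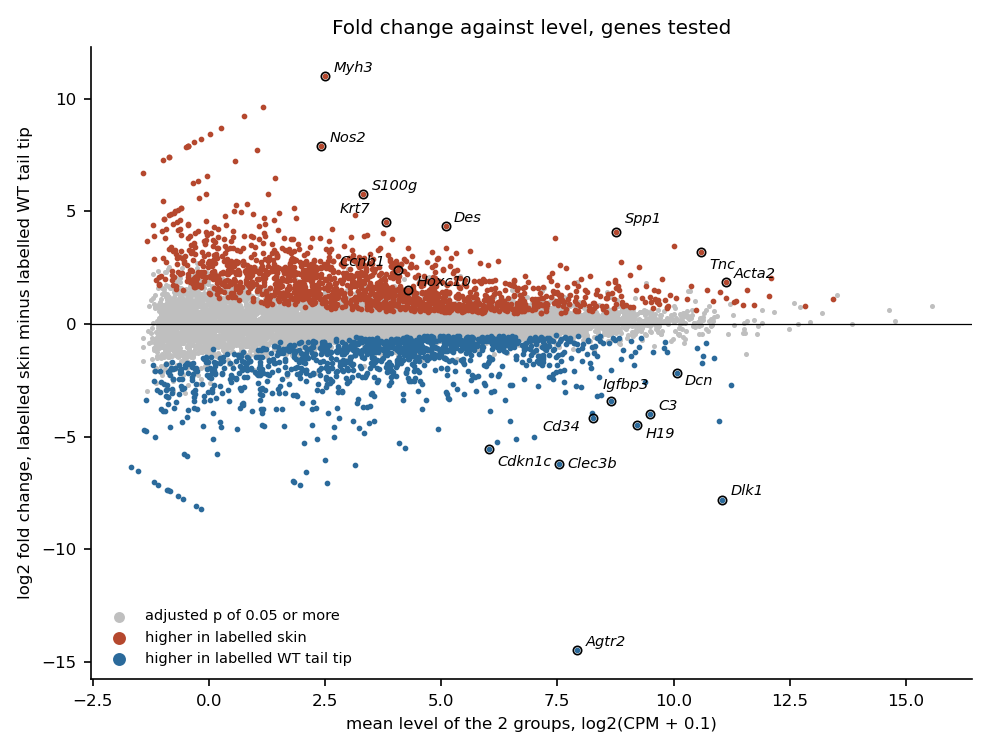
Log2 fold change of labelled skin over labelled WT tail tip (y axis) against the mean level of the groups, log2(CPM + 0.1) (x axis), for the 14073 genes tested. Red and blue points were called at an adjusted p under 0.05, 1478 higher and 1113 lower in labelled skin, and some named genes are ringed. Folds of genes without a count in a group, such as Myh3, depend on the prior count. Agtr2, Dlk1 and Clec3b are high-level genes far below 0, and Spp1 and Tnc are high-level genes far above it.

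Agtr2 and Dlk1 were high in labelled tip and low in labelled skin. Agtr2 (chrX:21350783-21355403, GRCm39), the type 2 angiotensin receptor, which is abundant in fetal mesenchyme, read 515, 499 and 448 CPM in labelled tip and 0.0447, 0 and 0 CPM in labelled skin. This is 37593 counts in 3 libraries against 1 count, and the ratio of 3.07e+04 has a 95% exact counting interval from 5.5e+03 to 1.21e+06. Dlk1 (chr12:109418749-109429262), a Notch-related surface protein of fetal tissue and of fat precursors, read 4560, 3540 and 4610 CPM against 17.8, 19.6 and 19.7 CPM, 221-fold higher in labelled tip by the fit (log2 fold change -7.79 ± 0.25). Labelled tip was far above labelled skin in each library for both genes, and in the Ercc1 d/- tail tip Agtr2 stood at 2.94 to 4.31 CPM and Dlk1 at 7.56 to 9.19 CPM. Because these are bulk cultures, fewer cells of a kind and less RNA per cell cannot be told apart.

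Dlk1 is an imprinted gene, expressed from 1 parental copy, and it was not the only such gene. The imprinted list was added after the values were seen, so its count is a description: of 27 tested, 11 were lower in labelled skin and 4 higher, against 7.91% and 10.5% of all genes. H19, a long noncoding RNA of fetal growth, read 33.9, 59.4 and 57.6 CPM in labelled skin and 1200, 1100 and 1120 CPM in labelled tip. Plagl1, a zinc finger factor that regulates other imprinted genes, read 3.2 to 4.16 CPM against 126 to 156, and Cdkn1c, a cyclin-dependent kinase inhibitor that restrains growth, read 4.96, 1.91 and 1.07 CPM against 140, 98.1 and 143. Rtl1, a retrotransposon-derived gene whose locus overlaps Rian on the other strand, was 8.16-fold higher in labelled tip. The 4 that were higher in labelled skin were Nap1l5, Mest, Asb4 and Peg3. The groups did not overlap for H19, Plagl1, Cdkn1c or Rtl1. The summed level of the list was 1120 to 1400 CPM in labelled skin, 6850 to 7770 CPM in labelled tip and 1390 to 1600 CPM in the Ercc1 d/- tail tip. Dlk1 alone made 4560, 3540 and 4610 CPM of the sum in labelled tip, and H19 1200, 1100 and 1120 CPM.

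Among the 12 largest differences in favour of labelled tip were also Clec3b, the plasminogen-binding protein tetranectin, Ppl, the desmosomal linker periplakin, Cdh26, a cadherin, and Tril, a partner of Toll-like receptors. Clec3b read 6.97, 4.59 and 3.2 CPM in labelled skin against 385, 273 and 437 CPM in labelled tip (log2 fold change -6.2 ± 0.37, edgeR adjusted p = 0.000322). Ppl read at most 0.127 CPM against 11 to 11.7 CPM. Nptx1, Plxdc1, Angptl1, Nrk and Gria1 completed the set at 5.48 to 28.4 CPM in labelled tip and at most 0.51 CPM in labelled skin. The 12 were chosen as the largest called differences without overlap, so their separation restates that choice.

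**Figure D4:**
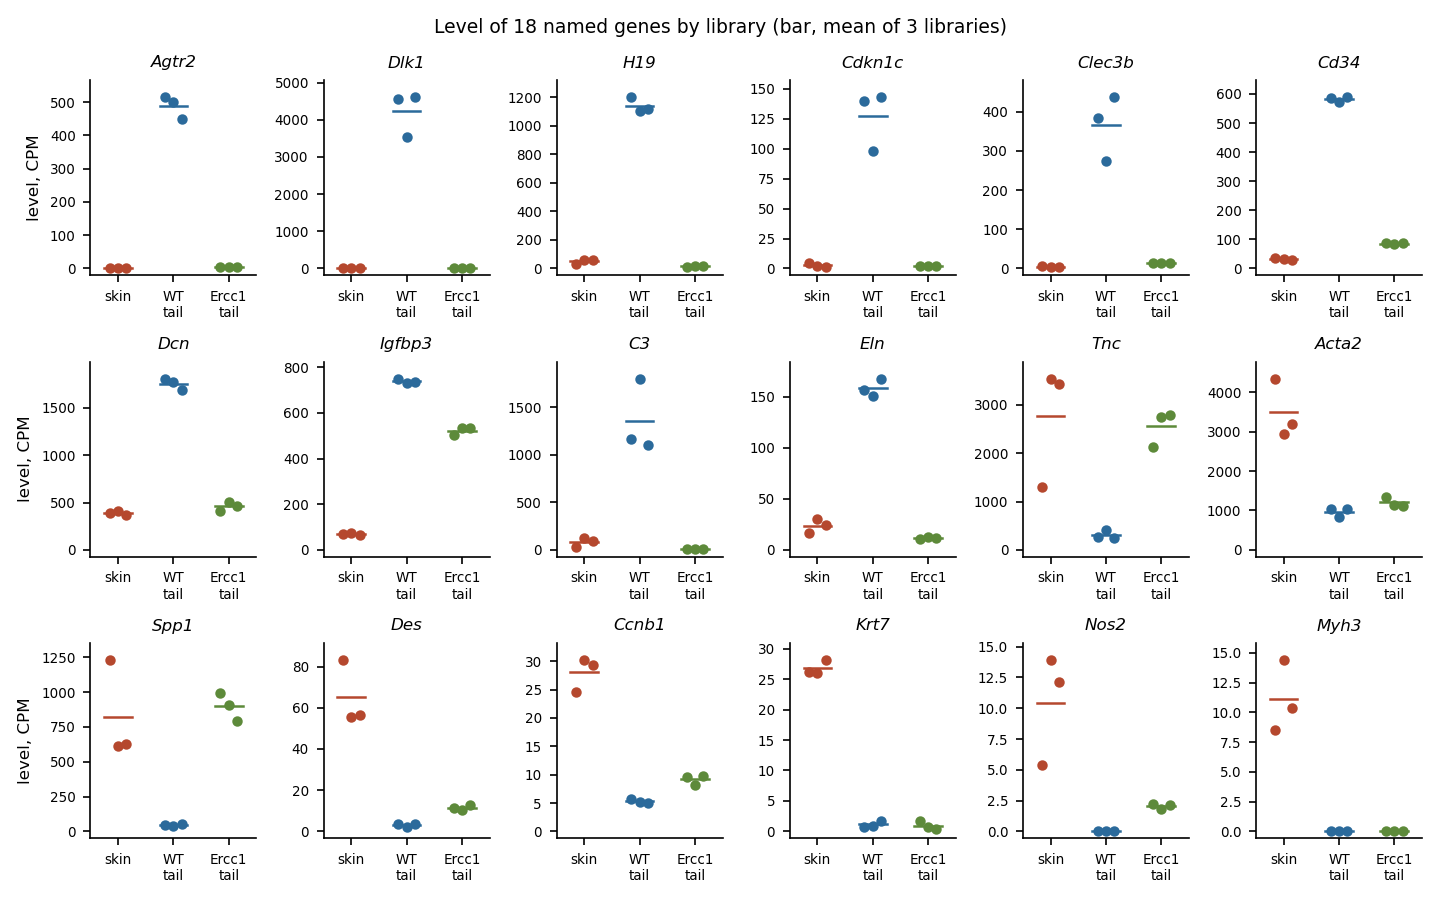
Level in CPM (y axis, a scale per gene) of 18 named genes in labelled WT skin, labelled WT tail tip and Ercc1 d/- tail tip, with a point per library and a bar at the mean of 3 libraries. The genes of the first 10 panels, from Agtr2 to Eln, are highest in labelled WT tail tip. The others, from Tnc to Myh3, are higher in labelled WT skin than there, and Spp1 lies at 794 to 997 CPM in the Ercc1 d/- tail tip.

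The genes by which fibroblasts are recognised were present in both groups and unequal in part. Of the 15 general fibroblast genes tested, 0 were called higher and 4 lower in labelled skin, against 10.5% and 7.91% of all genes (6 and 5 without labelled skin 1; at an unadjusted p under 0.05, 2 were higher, and DESeq2 called 1 higher). Cd34, a surface sialomucin of dermal and adventitial fibroblasts, read 35.9, 31.7 and 28.6 CPM in labelled skin and 585, 571 and 589 CPM in labelled tip, an 18-fold difference by the fit (log2 fold change -4.17 ± 0.17, edgeR adjusted p = 0.000112). Dcn, the collagen-binding proteoglycan decorin, read 389, 410 and 371 CPM against 1810, 1770 and 1690 CPM. Lum (lumican) and Fbln1 (fibulin 1) were 3.65-fold and 2.33-fold higher in labelled tip, and Fbln1 lost its call in at least 1 fit without a library. Of 25 genes that mark layers of the dermis, 9 were lower and 3 higher in labelled skin, the 3 being Sox18, Mest and Acta2 (11 lower and 5 higher without labelled skin 1). The share called higher was near that of all genes, 10.5%. Pi16, a mark of adventitial fibroblasts, was 10.4-fold higher in labelled tip, and Sox18, a factor of vessels and of the hair papilla, read 29.3, 28.5 and 23.7 CPM in labelled skin against 5.03, 3.1 and 4.41 CPM.

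Matrix genes were called in both directions. Of 37 proteoglycan and matricellular genes tested, 13 were lower and 6 higher in labelled skin, with a median log2 fold change of -0.18, against 7.91% and 10.5% of all genes. Without labelled skin 1 the counts were 14 lower and 12 higher, against 16.5% and 18.8% of all genes. Eln, the elastin of elastic fibres, read 16.5, 30.8 and 24.6 CPM in labelled skin and 157, 151 and 168 CPM in labelled tip. Kera, a proteoglycan of cornea and tendon, read 0.297 to 0.534 CPM against 10.4 to 13.6, and passed the filter through labelled tip alone, which fixed its direction. Smoc2, a calcium-binding matrix protein, was 6.29-fold higher in labelled tip, and read still more, 119 to 125 CPM, in the Ercc1 d/- tail tip. Of 35 collagen chains, 6 were higher and 5 lower in labelled skin (13 and 7 without labelled skin 1): Col8a1 read 889, 906 and 840 CPM against 185, 219 and 183 CPM, while its partner chain Col8a2 went the other way, at 4.96, 7.86 and 6.7 CPM against 66.8, 70.8 and 55.9 CPM. The groups did not overlap for either chain. The other 4 chains that were lower in labelled skin were Col28a1, Col6a5, Col6a6 and Col23a1. Of these Col6a6 passed the filter through labelled tip alone, which fixed its direction. Tnc, tenascin C of wounds and tendon, was higher in labelled skin at 1310, 3540 and 3430 CPM against 273, 407 and 244 CPM (3.18 ± 0.44, edgeR adjusted p = 0.00364). Among 29 proteases and inhibitors, 4 were called each way, against 10.5% of all genes higher and 7.91% lower. Without labelled skin 1, 14 were higher and 6 lower of 30, against 18.8% and 16.5% of all genes. DESeq2 called 8 higher and 4 lower. With all 6 libraries Adamts4, Timp1, Mmp17 and Mmp13 were higher in labelled skin, and Mmp9, Adamts17, Adamts15 and Timp2 lower, with Adamts15, a protease of proteoglycans, 19.6-fold higher in labelled tip and Mmp13, a collagenase, higher in labelled skin at no more than 2.02 CPM. Mmp13 passed the filter through labelled skin alone and Adamts17 through labelled tip alone, which fixed their directions.

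Genes of the complement cascade and of antigen presentation were higher in labelled tip in 8 of 21 tested and lower in 1, against 7.91% of all genes called in that direction (11 and 3 without labelled skin 1). C3, the central component of complement, read 33.9, 127 and 93.8 CPM in labelled skin and 1170, 1800 and 1100 CPM in labelled tip. The groups were far apart although C3 was lowest in labelled skin 1 (log2 fold change -3.98 ± 0.53, edgeR adjusted p = 0.00294). C1s1 and C1ra, the proteases that start the classical pathway, and C4b were 9.1-fold, 5.45-fold and 7.89-fold higher. The C1s1 locus overlaps C1rb on the other strand. The gene that was higher in labelled skin was H2-K1, which presents peptides to T cells. Of 21 interferon-stimulated genes 6 were also lower in labelled skin and 0 higher (0 at an unadjusted p under 0.05 and by DESeq2), with a median of -0.7, among them the enzyme gene Oasl2 (2.31 to 3.23 CPM against 9.59 to 15.5) and the factor gene Irf9 (14.7 to 17.9 CPM against 37.7 to 49.7).

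Signals that pass between cells made the next group. Of 33 genes of the Wnt pathway, 15 were lower and 5 higher in labelled skin (9 lower without labelled tail tip 1, and 8 higher without labelled skin 1), against 7.91% and 10.5% of all genes. Sfrp2, a secreted Wnt modulator of the dermis, read 43.1, 54.3 and 57 CPM in labelled skin and 261, 263 and 280 CPM in labelled tip (log2 fold change -2.37 ± 0.18, edgeR adjusted p = 0.000434). Sfrp4, Wnt2 and the receptor Fzd1 went the same way. Those that were higher in labelled skin were Dkk2, Rspo2, Rspo3, Tcf7 and Nkd2, and of these Rspo3, which amplifies Wnt signals, read 6.52, 4.59 and 5.1 CPM against 1.19, 0.968 and 0.741 CPM. Of 24 FGF and IGF genes, 9 were lower and 2 higher (Fgf5 and Fgf11), or 12 and 4 without labelled skin 1. Igf1, the growth factor, was 4.67-fold and Igfbp3, its main carrier, 10.7-fold higher in labelled tip (Igfbp3 at 67.8, 73 and 64.7 CPM against 750, 733 and 736 CPM). Fgf5, which ends the hair growth phase, had 172 counts in the labelled skin libraries and 1 in those of labelled tip, a ratio of 211 (95% exact counting interval 37.3 to 8.38e+03), and passed the filter through labelled skin alone. In the BMP and activin pathway 5 of 31 genes were higher (Grem1, Bmpr1b, Gdf6, Bmp1 and Inhba) and 8 lower in labelled skin, the former near the 10.5% of all genes (8 higher and 10 lower without labelled skin 1). Inhba, the subunit of activin A, read 301, 366 and 371 CPM against 59.2, 78.6 and 50.8 CPM, and Id2, a BMP target, 25.8, 12.4 and 12.8 CPM against 114, 86.3 and 111 CPM.

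Hedgehog and retinoic acid genes were called 5 each way of 21, against 10.5% of all genes higher and 7.91% lower (Dhrs3, Cyp26b1, Aldh1a2 and Rbp4 among those higher in labelled skin, and Hhip, Cdon, Gas1, Boc and Aldh1a1 lower). Gas1, a hedgehog coreceptor, was 6.02-fold higher in labelled tip, whereas Aldh1a2 and Cyp26b1, which make and break down retinoic acid, were higher in labelled skin by 2.65 ± 0.24 and 2.05 ± 0.27 on the log2 scale. Guidance genes of the ephrin, semaphorin and netrin families were called 9 each way of 42, with a median of -0.41, while DESeq2 called 9 higher and 13 lower and the fit with the length trend removed 9 and 17. Sema3c, a semaphorin of vessel and nerve growth, was 8.79-fold higher in labelled tip at 533 to 755 CPM, and Ntn1, a netrin, was 7.47-fold higher, while Ntn4 was higher in labelled skin, at 40.5 to 48.7 CPM against 5.81 to 7.28.

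Contractile genes were higher in labelled skin in 13 of 17 tested and lower in 0 (edgeR; 0 at an unadjusted p under 0.05 and by DESeq2), with a median log2 fold change of 1.7, against 10.5% of all genes called higher (17 of 17 and a median of 1.5 without labelled skin 1). Actc1 passed the filter through labelled skin alone, which fixed its direction, and with at least 10 counts in every library 12 were called. Acta2, the smooth muscle actin that marks myofibroblasts, read 4340, 2930 and 3180 CPM in labelled skin and 1050, 833 and 1030 CPM in labelled tip. Every labelled skin library lay above every labelled tip library, by 3.62-fold in the fit (log2 fold change 1.86 ± 0.22, edgeR adjusted p = 0.00202). Actg2, the enteric smooth muscle actin, was 6.25-fold higher, Cnn1, calponin, 4.77-fold, and Des, the intermediate filament desmin, 20.6-fold, at 83.1, 55.5 and 56.4 CPM against 3.76, 2.09 and 3.66 CPM. The 4 members that were not called were Tagln, Cnn2, Myh11 and Flna, with adjusted p from 0.0584 for Tagln to 0.215 for Flna. Acta2 shares its locus with Stambpl1 and Cnn1 with Elof1, each on the other strand.

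TGFb target genes were higher in labelled skin in 8 of 15 tested and lower in 1, the factor gene Junb, against 10.5% and 7.91% of all genes (11 and 1 without labelled skin 1, against 18.8% and 16.5%). Ccn2, a matricellular growth factor, read 1410, 871 and 867 CPM in labelled skin and 183, 166 and 198 CPM in labelled tip, 5.79-fold by the fit (log2 fold change 2.53 ± 0.24, edgeR adjusted p = 0.000943). Smad7, the inhibitor in the pathway's own feedback, read 60.7, 60.6 and 51.3 CPM against 25.8, 24.5 and 26.6 CPM, and the groups did not overlap for either gene. The ligand gene Tgfb1 was higher in labelled skin as well (1.22 ± 0.16). In cells labelled 4FJ (+/-) OCT4-GFP with the treatment TGFB, mean levels were 5320 CPM for Ccn2 and 5950 for Acta2, above both groups compared here.

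Genes of the dividing cell were called higher in labelled skin in most members of their list. Of 29 proliferation genes tested, 24 were higher in labelled skin and 0 lower (edgeR; 0 at an unadjusted p under 0.05 and by DESeq2), with a median log2 fold change of 2.28, against 10.5% of all genes called higher, or 18.8% without labelled skin 1 (25 of 29 and 2.12 without labelled skin 1, and 20 to 22 without any 1 of the other libraries). Ccnb1, the cyclin of mitosis, read 24.6, 30.2 and 29.4 CPM in labelled skin and 5.7, 5.19 and 5.02 CPM in labelled tip (2.41 ± 0.18, edgeR adjusted p = 0.000434). Bub1, a kinase of the spindle checkpoint, read 16.8, 15.1 and 13.5 CPM against 1.9, 1.2 and 1.61 CPM, and Rrm2, the subunit of ribonucleotide reductase that is made in S phase, 44.4, 44 and 48 CPM against 11.8, 9.8 and 10.3 CPM. The groups were separated for each of them, and labelled skin 1 lay close to its replicates. The summed level of the list was 885 to 1000 CPM in labelled skin, 292 to 340 CPM in labelled tip and 414 to 435 CPM in the Ercc1 d/- tail tip.

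Since these genes moved together, their promoters are shown for the 4 called members with the smallest p among those that have a RefSeq promoter window, as the 250 bases before the start of transcription. Genes of a single chromosome were left out of this choice. The letters CCAAT (either strand), bound by the factor NF-Y, and TTTGAA (either strand), the core of the element called CHR, are in capitals. A reverse-strand match reads ATTGG or TTCAAA. Both elements are known from genes of dividing cells. RefSeq windows of build GRCm38.p6 were placed on GRCm39 by an exact match, which was found once on the chromosome for each.
Bub1: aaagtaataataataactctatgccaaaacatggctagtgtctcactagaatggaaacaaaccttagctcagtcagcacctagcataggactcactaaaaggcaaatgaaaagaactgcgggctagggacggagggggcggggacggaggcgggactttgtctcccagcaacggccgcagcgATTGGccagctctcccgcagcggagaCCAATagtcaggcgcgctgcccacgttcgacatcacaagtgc
Ccnb1: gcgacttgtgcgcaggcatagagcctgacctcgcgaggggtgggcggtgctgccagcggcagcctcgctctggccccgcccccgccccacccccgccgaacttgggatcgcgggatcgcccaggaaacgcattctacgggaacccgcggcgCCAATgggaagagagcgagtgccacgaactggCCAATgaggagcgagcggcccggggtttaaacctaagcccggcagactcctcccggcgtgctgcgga
Rrm2: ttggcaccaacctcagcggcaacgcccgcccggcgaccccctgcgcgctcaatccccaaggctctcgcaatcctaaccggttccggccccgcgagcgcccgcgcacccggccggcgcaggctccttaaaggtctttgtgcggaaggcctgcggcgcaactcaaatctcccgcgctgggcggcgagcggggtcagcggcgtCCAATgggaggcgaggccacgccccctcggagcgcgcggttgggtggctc
Top2a: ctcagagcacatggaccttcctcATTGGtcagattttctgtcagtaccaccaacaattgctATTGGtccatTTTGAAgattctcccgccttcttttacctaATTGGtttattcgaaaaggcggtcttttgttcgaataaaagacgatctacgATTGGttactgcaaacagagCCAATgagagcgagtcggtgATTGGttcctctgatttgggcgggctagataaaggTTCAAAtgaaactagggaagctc
These lie at chr2:127673780-127674029 (minus strand) for Bub1, chr13:100922995-100923244 (minus strand) for Ccnb1, chr12:24758003-24758252 (plus strand) for Rrm2 and chr11:98915016-98915265 (minus strand) for Top2a, the gene of a topoisomerase that untangles chromosomes, which averaged 98.5 CPM in labelled skin and 15.4 CPM in labelled tip. Bub1 and Ccnb1 hold 2 CCAAT matches each, Rrm2 holds 1, and Top2a holds 6 along with 2 TTTGAA matches. Of the 29 proliferation genes, 24 had a window, and 19 of these held CCAAT (79.2%) and 7 TTTGAA (29.2%), against 37.5% and 18.3% of the 27025 genes with a window. CCAAT was also in 9 of the 14 windows of the contractile genes described above (64.3%). A match describes the letters only and is no evidence that a factor binds there. Among the contractile genes 3 of 14 windows held the serum response element known as the CArG box (21.4%, against 1.62% of all genes). The windows of Des, Cnn1 and Smtn, chosen by the same rule as that of Actc1, held 0 CArG boxes and are not printed. That of Actc1, the cardiac actin, lies at chr2:113883357-113883606 (minus strand), with the box in capitals.
Actc1: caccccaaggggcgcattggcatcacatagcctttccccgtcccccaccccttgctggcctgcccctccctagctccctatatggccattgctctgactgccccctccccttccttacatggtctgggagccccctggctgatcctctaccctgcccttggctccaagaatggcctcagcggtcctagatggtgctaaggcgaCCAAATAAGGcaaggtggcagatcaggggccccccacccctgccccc

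Genes that arrest the cell cycle or are secreted by arrested cells did not go 1 way: 9 of 24 were higher and 4 lower in labelled skin, against 10.5% and 7.91% of all genes, the 4 being Cdkn1c, Igfbp3, Cxcl12 and Cxcl1 (11 and 7 without labelled skin 1). Cdkn1c, given above, and Cxcl12, a chemokine of stromal cells, were lower in labelled skin (Cxcl12 at 145, 167 and 161 CPM against 641, 657 and 650 CPM), and Vegfa, the vascular growth factor, was higher at 237, 294 and 279 CPM against 107, 117 and 114 CPM. Of 29 genes of nucleotide excision repair, the pathway in which Ercc1 works, 2 were higher (4 higher and 3 lower without labelled skin 1), 0 lower (1 at an unadjusted p under 0.05 and 0 by DESeq2) and 27 not called, against 10.5% and 7.91% of all genes. The 2 were Lig1, a ligase that also serves replication (0.97 ± 0.18), and Pole, the leading-strand polymerase (1.95 ± 0.52), and neither was called in every fit without 1 library.

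Several skeletal muscle genes, Myh3 and Myh8 among them, were at or near 0 in labelled tip and passed the filter through labelled skin alone, which fixed their direction. The 7 tested of 12 listed were all called higher in labelled skin, which is given as a description, and with at least 10 counts required in every library 3 were called. Myh3, the embryonic myosin heavy chain, read 8.49, 14.4 and 10.4 CPM in labelled skin and had no count in labelled tip, so that it was at least 94.8-fold higher against a floor of 3 counts in each library. Myh8, the perinatal myosin, read 0.983, 2.42 and 2.08 CPM and also had no count in labelled tip (at least 15.6-fold). Actc1, which is in the contractile list and not in this one, had 249 counts against 1, a ratio of 305 (95% exact counting interval 54.3 to 1.21e+04). The factor genes of muscle stem cells Pax7 and Myf5 had no count in any of the 6 libraries, and Myod1 averaged 0.423 CPM in labelled skin and had no count in labelled tip. The summed level of the 12 genes was 129 to 155 CPM in labelled skin, 16.6 to 22.2 in labelled tip and 30.2 to 37.5 in the Ercc1 d/- tail tip, and the part of muscle cells in the contractile result was not tested. Des, which is also in the contractile and mural lists, made 83.1, 55.5 and 56.4 CPM of the sum in labelled skin and 3.76, 2.09 and 3.66 CPM in labelled tip.

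Endothelial markers were higher in labelled skin in 7 of 10 tested and lower in 1, against 10.5% and 7.91% of all genes. Pecam1, an adhesion molecule of vessel lining, read 49, 76.3 and 63 CPM in labelled skin and 12.4, 15.5 and 12 CPM in labelled tip (2.25 ± 0.23, edgeR adjusted p = 0.0011). Kdr and Tie1, receptors of the vessel wall, went the same way by 7.46-fold and 7.02-fold. Tek, the receptor of angiopoietins, went the other way, at 10.3, 8.45 and 7.65 CPM against 36.4, 38.1 and 33.1 CPM. The summed level was 246 to 318 CPM in labelled skin, 88.3 to 106 in labelled tip and 402 to 437 in the Ercc1 d/- tail tip. Mural cell markers were higher in 4 of 8 tested (Des, Mcam, Abcc9 and Rgs5, of which Abcc9, at 63 counts against 2, passed the filter through labelled skin alone), and in 8 of 8 without labelled skin 1, against 10.5% and 18.8% of all genes, with Mcam, an adhesion molecule of pericytes, at 34.7, 56.5 and 51.1 CPM against 8.46, 8.37 and 8.11 CPM. The part of vessel cells in the contractile and TGFb results was not tested.

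Markers of keratinocytes and leukocytes were low. The counts of the marker lists that follow rest on few genes and stand against 10.5% of all genes called higher and 7.91% lower. Of 16 keratinocyte markers 4 passed the filter and Krt18 was higher and Trp63 lower in labelled skin, and Krt18 lost its call without labelled skin 1. The basal keratin Krt14 had no count in any of the 6 libraries, and the summed level was 7.06 to 10.9 CPM in labelled skin and 18.1 to 20.5 CPM in labelled tip. Trp63, a factor of basal epidermis, read 1.54 to 1.95 CPM against 10.7 to 13.4 CPM. Krt7, a keratin of simple epithelia outside that list, was among the 12 largest differences in favour of labelled skin, at 26.1, 26 and 28.1 CPM against 0.745, 0.968 and 1.77. Ptprc and Cd3e, defining leukocyte genes, had no count, and the summed leukocyte level was 15.3 to 18.4 CPM in labelled skin and 7.98 to 9.72 in labelled tip. Csf1r, the receptor of a macrophage growth factor, was the 1 of 3 tested that was called, at 12.1 to 14.8 CPM against 2.91 to 4.65 CPM. Of 8 Schwann cell and melanocyte markers tested, 4 were higher (Sox10, Erbb3 and Ngfr among them) and 2 lower (Mitf and Pmel), and Sox10, a factor of the neural crest, read 2.5, 5.73 and 6.41 CPM in labelled skin and at most 0.224 CPM in labelled tip, so that it passed the filter through labelled skin alone. Adipocyte markers were called 2 higher (Fabp4 and Dgat2) and 3 lower (Cebpa, Pparg and Lpl) of 5 tested, with Fabp4, a fatty acid carrier, 14.8-fold higher in labelled skin and Cebpa, a factor of fat cell differentiation, 3.51-fold higher in labelled tip. Of tendon markers 2 were higher (Tnc and Col12a1) and 2 lower (Kera, which passed the filter through labelled tip alone, and Egr1) of 9 tested, and of cartilage markers 1 was higher (Sox6; 2 without labelled skin 1) and 2 lower (Comp and Sox9) of 6. Of bone markers 1 was higher of 4 (2 without labelled skin 1), namely Spp1, the secreted phosphoprotein osteopontin, at 1230, 611 and 630 CPM against 48.7, 42.2 and 53.9 CPM. Of 5 sex-linked genes Xist alone was tested and it was not called, and the 4 genes of the Y chromosome had no count, in cells labelled female.

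The other large differences in favour of labelled skin were low in level. Nos2, the inducible nitric oxide synthase, read 5.36, 13.9 and 12.1 CPM in labelled skin and at most 0.0745 CPM in labelled tip, where 3 counts in all gave a ratio of 266 (95% exact counting interval 90.8 to 1.3e+03). S100g, a calcium-binding protein of gut and uterus, read 31.7, 12.6 and 14.1 CPM against at most 0.658 CPM, and its locus overlaps Ctps2 on the other strand. Dll4, a Notch ligand of arteries, Gzme, a granzyme, Mogat2, an enzyme of fat synthesis, Lamc3, a laminin chain, Car9, a carbonic anhydrase induced by low oxygen, Runx3, a Runt factor, and Alkal1, a receptor ligand, read 2.97 to 21.5 CPM in labelled skin and at most 1.24 CPM in labelled tip. These genes, with Myh3, Krt7 and Des, were chosen as the 12 largest called differences without overlap, so their separation restates that choice.

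**Figure D5:**
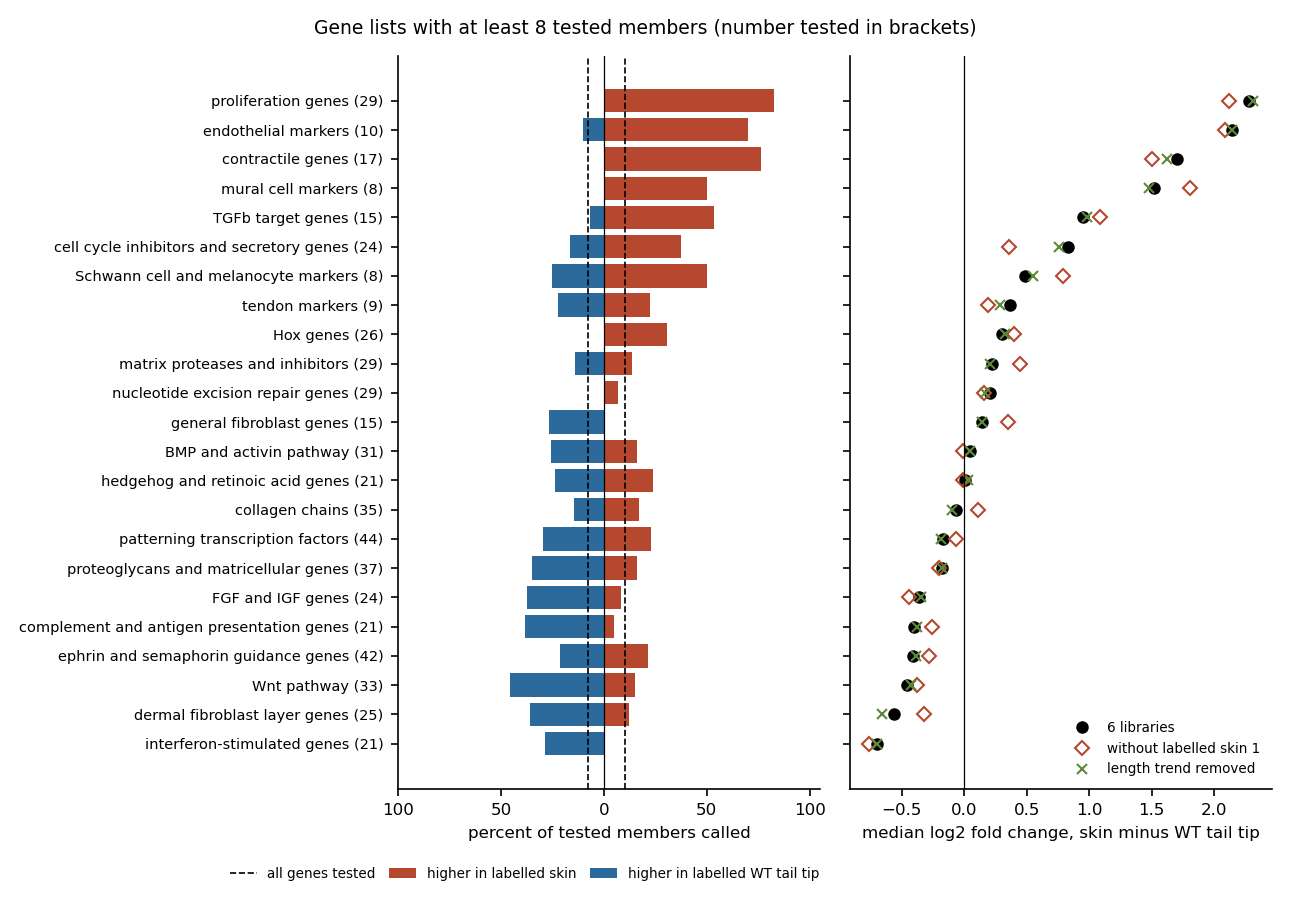
Gene lists with at least 8 members tested, ordered by their median. Left, percent of tested members called higher in labelled skin (red, to the right) and higher in labelled WT tail tip (blue, to the left), with dashed lines at 10.5% and 7.91% for all genes tested; right, median log2 fold change with all 6 libraries, without labelled skin 1 and with the length trend of each library removed. Proliferation genes lie highest, at a median of 2.28, and interferon-stimulated genes lowest, at -0.7, and the largest move of a median is that of the cell cycle inhibitors, from 0.83 to 0.36 without labelled skin 1.

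Set beside the Ercc1 d/- tail tip controls, the labelled skin libraries gave 1095 genes higher (7.91%) and 796 lower (5.75%) of 13845 tested (2604 and 2214 without labelled skin 1), and the Ercc1 d/- tail tip gave 2891 genes higher (20.5%) and 2956 lower (21.0%) than labelled tip of 14077 tested. These comparisons share libraries, differ in genotype and age as well, and are given only side by side. The median Euclidean distance between libraries, over the log2 CPM of all genes tested, was 131 between labelled skin and labelled tip, 118 between labelled skin and the Ercc1 d/- tail tip, and 144 between labelled tip and the Ercc1 d/- tail tip, against 48.7 to 119 among labelled skin libraries, 47 to 69.4 among labelled tip libraries and 47.5 to 55.1 among Ercc1 d/- libraries. Dcn read 413, 505 and 469 CPM in the Ercc1 d/- tail tip and was not called against labelled skin (edgeR adjusted p = 0.304), and Cdkn1c read 2.38, 1.66 and 2.01 CPM (adjusted p = 0.668). Igfbp3 read 502, 533 and 532 CPM and Lum 97.8, 91.1 and 87.7 CPM there, and both were called lower in labelled skin. Proliferation genes were higher in labelled skin than in the Ercc1 d/- tail tip in 21 of 29 tested (median 1.44) and contractile genes in 11 of 17 (median 1.19), while TGFb target genes were called 3 higher and 1 lower of 15 and endothelial markers 2 lower of 10. In that comparison complement and antigen presentation genes were called 9 higher and 0 lower in labelled skin of 21 (median 0.65). Wnt genes were called 11 higher and 6 lower of 35, and imprinted genes 9 and 4 of 27. Against labelled tip these lists had more members lower than higher in labelled skin. Interferon-stimulated genes did not turn, at 0 higher and 2 lower of 19.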

How the data were processed

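PolyA RNA of cultured mouse fibroblasts was sequenced in paired 150 bp reads. The authors deposited raw counts per gene in a table of 24 libraries, made with FastQC, Trim Galore, HISAT2 and featureCounts (Subread) on GRCm39 per the submitters' processing notes; versions and the strand setting are not given in the sources used here. Of 56980 gene identifiers, 56236 (98.7%, with 99.98% of the counts) were matched to GENCODE M39 for symbols, overlaps and coordinates.

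From the counts, labelled skin (3 libraries) and labelled WT tail tip (3 libraries) were compared with edgeR 4.0.16 in R 4.3.3: TMM scaling, filterByExpr (minimum count 10, minimum total 15), the quasi-likelihood test, two-sided, and Benjamini-Hochberg adjustment over all genes tested at 0.05. The 2 comparisons with Ercc1 d/- tail tip were fitted separately in the same way. Levels are CPM with TMM library sizes over the table; levels per kilobase use the deposited gene length. SE is that of the log2 fold change. The fit was tested on simulated data with less spread between replicates than these libraries had and no library that stood apart, so that test does not cover such a library. Depth was 19677799 to 27782538 counts a library, so that a count of 0 allows up to 0.112 to 0.178 CPM (3 counts); floors and 95% intervals cover counting error only.

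Named genes were the Hox genes, the 12 largest differences each way among called protein-coding genes of at least 5 CPM without overlap, up to 5 members of each list by p, defining markers, Ercc1 and the 5 highest levels per kilobase. Members that complete a small count, the genes with promoter windows and the imprinted list were chosen after their values were seen. The groups, lists and rules were chosen with earlier results of these data known. Lists are described by counts and medians only. A member at or near 0 in 1 group passed the filter through the other group alone, which fixed its direction. Some genes under these rules are not reported here. Alternatives were DESeq2 1.42.0, its size factors, no filter or a stricter one, all 24 libraries in 1 fit, a fold threshold, leaving out each library and, added after seeing the data, removal of each library's trend with gene length (lowess span 0.3).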

Additional observations from a re-analysis of the deposited data

How the results depend on the processing

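The numbers of genes called moved with the libraries, the fit and the threshold. With all 24 libraries in 1 fit 2829 genes were higher and 2519 lower in labelled skin than in labelled tail tip, and leaving out each library gave 769 to 2709 higher and 512 to 2381 lower. Against Ercc1 d/- tail tip the 24-library fit gave 2201 and 1960, and leaving out each library 512 to 2604 and 324 to 2214. For Ercc1 d/- over labelled tail tip, a minimum size of 1 for the log2 fold change, up or down, left 1283 higher and 1268 lower, and leaving out each library gave 2064 to 4133 and 2081 to 3891. For labelled skin over labelled tail tip, DESeq2 called 1876 higher and 1457 lower, and with the length trend removed, which was added after seeing the data, 1961 were higher and 1638 lower.

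Called Hox genes numbered 5 without the filter and 2 to 10 without 1 library; Wnt genes lower in labelled skin numbered 9 to 15, and skeletal muscle genes 5 to 8, or 3 with at least 10 counts in every library. The ranges without 1 library were 9 to 17 for contractile, 6 to 11 for TGFb target, 20 to 25 for proliferation, 6 to 11 for complement and 6 to 9 for endothelial genes. Of 184 named genes with a test, 166 kept their direction and side of the threshold without labelled skin 1, 16 gained a call, Krt18 lost it, and Gtf2h5, a repair factor subunit, turned from 0.00 to -0.54 (adjusted p = 0.0339; -0.54 to 0.24 over the fits without 1 library). Without each other library 14 to 22 lost their call and 0 turned. The cause of these changes was not tested. No paired analysis was possible because the groups share no replicate numbers in the labels. With 3 libraries a group, 1 of which stood apart, a gene that was not called is not shown to be equal.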
